A study of Mus musculus with 41 samples.

Results

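The histone deacetylases described here were the 10 genes Hdac1, Hdac2, Hdac3, Hdac4, Hdac5, Hdac6, Hdac7, Hdac8, Hdac9 and Hdac11, taken by symbol from the 32531 named genes counted in every library. Hdac10 was not in this set, so sums and shares below cover the listed genes only. All 10 were listed in all 41 libraries and all 10 passed the filter on low counts in every comparison. The study measured RNA bound to tagged ribosomes (translating ribosome affinity purification, TRAP) from the dorsal striatum of mice after intravenous self-administration of saline or cocaine. In the Drd1-TRAP line CP73, the dopamine D1 receptor gene's regulatory sequence drives an EGFP-tagged ribosomal protein, so that anti-EGFP antibodies pull down ribosomes from the cells in which that transgene is active. Every animal carried this transgene on a background of FVB/N-Swiss Webster crossed for at least 9 generations to C57BL/6. No group lacked the transgene, and 1 transgenic line supplied all libraries.

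The 39 purified libraries came from 6 groups. At 24 h after the last session there were 5 libraries from saline animals, 9 from cocaine animals whose intake was labelled nonescalating and 5 from cocaine animals labelled escalating. After 1 month of withdrawal there were 5 saline, 11 nonescalating and 4 escalating libraries. Another 2 libraries held total RNA (input) of saline animals, with no time given. Replicate numbering restarted within the nonescalating animals, which gave a run of 6 and a run of 3 libraries at 24 h, and runs of 6 and 5 after withdrawal. The labels do not say that each library is a different animal, so every p-value below measures the spread between libraries, which may be partly technical.

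Histone deacetylases remove acetyl groups from lysines, on histones and on other proteins, and so oppose the acetyltransferases that open chromatin. The class I enzymes (Hdac1, Hdac2, Hdac3, Hdac8) are mostly nuclear, and of them Hdac1, Hdac2 and Hdac3 work as catalytic subunits of corepressor complexes. The class IIa members (Hdac4, Hdac5, Hdac7, Hdac9) have weak catalytic activity of their own, bind MEF2 transcription factors and leave the nucleus when calcium-dependent or related kinases phosphorylate them and 14-3-3 proteins hold them in the cytosol. Hdac6 (class IIb) acts largely on cytosolic proteins such as tubulin, and Hdac11 is the sole class IV enzyme. In rodent striatum, Hdac5, Hdac4, Hdac3 and class I enzymes have been tied to the behavioural response to cocaine.

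RefSeq promoter windows of GRCm38.p6 run from 250 bases before to 50 bases after an annotated start. The set used here held 12 windows, from 8 of the 10 genes. Hdac1 and Hdac3 were not among these genes. Any window of Hdac3 was left out beforehand, so the counts below say nothing about its promoter. The 3 windows shown belong to Hdac2, Hdac5 and Hdac11, the genes with the highest levels, and each is written 5′ to 3′ on the gene's own strand, with the letters TGACG (the short core of the cAMP response element) and TATTTTTA (a core of the MEF2 element) in capitals. The Hdac2 window is chr10:36974294-36974593 on the plus strand, the Hdac5 window is chr11:102230123-102230422 on the minus strand, and the Hdac11 window is chr6:91156565-91156864 on the plus strand.
Hdac2: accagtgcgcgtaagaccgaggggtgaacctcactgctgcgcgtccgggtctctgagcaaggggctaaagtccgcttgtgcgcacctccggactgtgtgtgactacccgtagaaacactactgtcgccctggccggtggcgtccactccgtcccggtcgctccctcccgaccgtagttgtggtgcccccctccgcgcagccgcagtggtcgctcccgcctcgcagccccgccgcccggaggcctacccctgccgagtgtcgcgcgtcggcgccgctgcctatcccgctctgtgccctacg
Hdac5: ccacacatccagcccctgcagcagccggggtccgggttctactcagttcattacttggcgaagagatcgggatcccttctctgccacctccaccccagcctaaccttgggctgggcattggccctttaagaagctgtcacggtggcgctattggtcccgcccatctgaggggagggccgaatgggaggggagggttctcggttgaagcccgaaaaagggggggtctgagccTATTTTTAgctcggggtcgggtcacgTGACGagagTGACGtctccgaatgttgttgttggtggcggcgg
Hdac11: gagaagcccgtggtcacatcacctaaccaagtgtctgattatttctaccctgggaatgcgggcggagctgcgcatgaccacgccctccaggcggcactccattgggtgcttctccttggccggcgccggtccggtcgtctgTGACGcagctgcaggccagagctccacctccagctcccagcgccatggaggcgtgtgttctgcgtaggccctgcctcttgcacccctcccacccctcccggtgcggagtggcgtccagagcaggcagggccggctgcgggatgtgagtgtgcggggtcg
Both strands were searched, and no match of one motif overlapped a match of the other. The Hdac5 window held 2 short cores and 1 MEF2 core, the Hdac11 window held 1 short core, and the Hdac2 window held none of either. Of the remaining members' windows, the one of Hdac4, a class IIa gene, held 3 short cores, and 1 of the windows of Hdac9 held 1 MEF2 core. Over all 32851 windows, 20.8% held a short core and 2.72% a MEF2 core. The full element TGACGTCA, which contains the short core on both strands, was in 1.79% of all windows and in 0 of the 12. The Hdac2 window had 36 CG pairs, the Hdac11 window 22 and the Hdac5 window 18, against a median of 7 over all windows. A match is a description of the letters and not of binding.

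Totals ran from 5394332 to 23925655 counts per library, with a median of 11340272, and 11856 to 18869 genes had a count. Levels below are CPM, counts per 1000000 counts assigned to genes, with trimmed-mean scaling over all 41 libraries. Saline 24 h replicate 5 stood apart, with the lowest total, the fewest genes detected and 42.3% of its reads, multiply aligned ones left out, in the class that fell in no gene, against 15.9% to 30.75% in the remaining purified libraries. Its summed astrocyte markers were 1181 CPM (126.7 to 706 in the other purified libraries) and its summed endothelial markers 1678 CPM (17.4 to 1337 in the others). Values without it are given beside the results it moved most. Between purified saline and input, 4 of 8 D1 neuron markers were called higher and all 8 were positive, while 5 of 7 D2 neuron, 4 of 8 astrocyte and 6 of 8 oligodendrocyte markers were called lower. Among the cortical neuron markers 0 of 6 were called, 2 were positive and 4 negative, and the median log2 fold change was -0.06. All 7 endothelial markers were positive, with a median log2 fold change of 3.57 against 1.29 for the D1 markers, and 0 of 7 were called. The endothelial sum was 22.1 to 27.5 CPM in the inputs and 17.4 to 1678 CPM in the purified libraries.

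Most of the summed RNA of the 10 genes came from 3 genes of different classes. In the 39 purified libraries the 10 genes summed to 523 ± 47.1 CPM (SD, n = 39), and Hdac2, Hdac5 and Hdac11 supplied 76.2 ± 3.42% of that sum. In the inputs the sums were 412.7 and 493.5 CPM, and the same 3 genes supplied 70.2% and 71.3%. Hdac11 stood at 136 ± 24.4 CPM, Hdac5 at 132 ± 49.6 CPM and Hdac2 at 131 ± 27.5 CPM (SD, n = 39 each). These CPM values are not corrected for gene length, and the genes' merged exons differ from 3445 bases in Hdac1 to 15813 bases in Hdac4.

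Per kilobase of merged exon (GENCODE annotation of GRCm38), Hdac11 was highest at 35.4 ± 6.33 CPM per kb, and it exceeded Hdac2, at 29.3 ± 6.15, in 30 of 39 purified libraries. Hdac2 exceeded Hdac5, at 15.01 ± 5.65, in 37 of 39 libraries, and Hdac5 exceeded Hdac3, at 5.57 ± 2.28, in 38 of 39. So the top of the order was held in most libraries, though the ranges of each pair of neighbours overlapped. The next neighbours, Hdac1 at 2.99 ± 1.17 and Hdac4 at 2.81 ± 0.81 CPM per kb, were not separable: Hdac1 was above Hdac4 in 16 of 39 libraries, and they changed places when the longest coding transcript was used as the length. Below them came Hdac6 at 2.18 ± 0.62, Hdac9 at 1.82 ± 0.42, Hdac7 at 0.754 ± 0.813 and Hdac8 at 0.447 ± 0.362 CPM per kb. Hdac6 and Hdac9 also changed places with the other length. Hdac7 was above Hdac8 in 25 of 39 libraries, and in 19 of 39 with the other length, so those neighbours were not separable.

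By merged exons, the order in total striatal RNA was the same from Hdac11 down to Hdac4. In the inputs Hdac11 stood at 37.1, Hdac2 at 23.4, Hdac5 at 8.32, Hdac3 at 5.89, Hdac1 at 3.60 and Hdac4 at 2.23 CPM per kb (means of 2 libraries). Hdac8, the lowest of the 10 on average in purified RNA, was in place 8 there, at 2.15 CPM per kb, between Hdac9 at 2.22 and Hdac6 at 2.06. From Hdac4 to Hdac6 the ranges of neighbours overlapped in the inputs, so these genes were not separable. With the longest coding transcript as the length, Hdac8 was in place 6 of the inputs, at 5.36 CPM per kb, above Hdac4 at 4.36. Hdac7 was lowest, at 0.883 CPM per kb. Summed by class over the listed genes, class I stood at 38.3 ± 7.03 CPM per kb in the 39 purified libraries, saline and cocaine together, and 35.0 in the saline inputs. Class IIa stood at 20.4 ± 5.80 and 13.7, class IIb (Hdac6 alone) at 2.18 ± 0.62 and 2.06, and class IV at 35.4 ± 6.33 and 37.1.

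**Figure D1:**
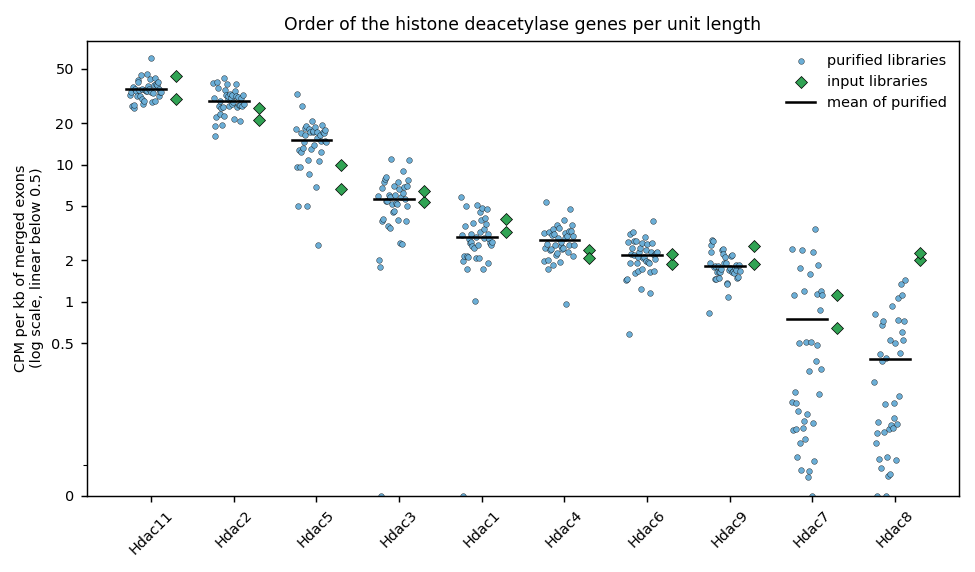
Level per kilobase of merged exon (CPM per kb, log scale that is linear below 0.5) of the 10 genes, ordered by their mean over the 39 purified libraries (circles, with a black line at the mean) beside the 2 inputs (diamonds). Hdac11, Hdac2 and Hdac5 lead in both kinds of RNA, and both Hdac8 inputs, near 2 CPM per kb, lie above every purified library of that gene.

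Between close relatives the levels per kb were uneven, in purified RNA and in the inputs. Hdac2 and Hdac1, which share the same corepressor complexes, stood at a ratio per kb of 10.96 ± 5.59 over the 38 purified libraries in which Hdac1 was detected. Hdac5 exceeded Hdac4, another MEF2-binding class IIa enzyme, by a ratio per kb of 5.66 ± 2.53 in purified RNA (SD, n = 39). The input means were 23.4 for Hdac2 and 3.60 for Hdac1, and 8.32 for Hdac5 and 2.23 for Hdac4, in CPM per kb. The libraries also differed in how steadily each gene was measured. The coefficient of variation over the 39 purified libraries was 17.9% for Hdac11 and 23.1% for Hdac9, with Hdac2 between them, and it was 37.7% for Hdac5, 81.1% for Hdac8 and 108% for Hdac7.

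The comparison of purified saline RNA with input asks which members are more or less abundant in the purified RNA than in the tissue as a whole. The purified RNA was not of D1 cells alone. Its summed endothelial markers were 17.4 to 1678 CPM in saline libraries at 24 h and 39.1 to 760 CPM at 1 month. In the inputs they were 22.1 to 27.5 CPM, and their part in these differences was not tested. Hdac8, a class I enzyme outside the large corepressor complexes and best known for deacetylating the cohesin subunit SMC3, lies at chrX:102284639-102505359 on the minus strand. Its level was 9.84 and 10.9 CPM in the inputs, from 129 and 101 counts. In saline libraries at 24 h it was 1.80, 3.97, 0.826, 0 and 0.987 CPM, and at 1 month 2.54, 0.340, 1.12, 4.48 and 1.07 CPM. No purified saline library reached either input, and neither did any cocaine library, the highest of which was 6.94 CPM. The library at 0 is Saline 24 h replicate 5, where a count of 0 allows up to 0.596 CPM (3 counts, counting error only).

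Across the 10 saline libraries Hdac8 averaged 1.71 ± 1.505 CPM, against 10.4 ± 0.77 CPM in the 2 inputs. The fitted log2 fold change was -2.64 ± 0.94 (standard error; fold 0.160, 95% interval 0.0397 to 0.644), with p = 0.0134 and an adjusted p of 0.133 by edgeR's quasi-likelihood test over 15305 genes, so it did not pass 0.05. Without Saline 24 h replicate 5 the log2 fold change was -2.49 ± 0.73 with an adjusted p of 0.0312, which passes. DESeq2 gave an adjusted p of 0.0644. Leaving out either input gave adjusted p-values of 0.565 and 0.619, each with a single input. The ranges of purified saline and input did not overlap for 17.3% of all genes tested, so that separation is not rare among genes. Were the difference real, fewer Hdac8-expressing cells among the purified cells and less Hdac8 RNA per cell or per ribosome could not be told apart in pooled tissue. The inputs are total RNA that was not immunopurified, so cell type and preparation cannot be told apart in this comparison either.

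Hdac5, the class IIa enzyme whose nuclear form limits cocaine reward in rodent accumbens, lies at chr11:102194432-102230166 on the minus strand. It was at 58.7 and 87.3 CPM in the inputs. In purified saline RNA it was at 160, 83.7, 290, 43.5 and 113 CPM at 24 h and at 115, 183, 152, 155 and 122 CPM at 1 month. Of these 10 libraries, 8 were above both inputs, 1 lay between them and 1, Saline 24 h replicate 5, was below both. The log2 fold change was 0.91 ± 0.49 (fold 1.88, 95% interval on the log2 scale -0.13 to 1.95; edgeR adjusted p = 0.359), and without Saline 24 h replicate 5 it was 1.02 ± 0.35 (edgeR adjusted p = 0.063), so it passed in neither fit. Over all 39 purified libraries, saline and cocaine together, Hdac5 supplied 24.7 ± 7.96% of the summed CPM of the 10 genes, and 14.2% and 17.7% in the saline inputs.

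The remaining members gave smaller differences from input, and none of the 10 was called, against 4.65% of all genes (712 of 15305, of which 282 were higher and 430 lower). By unadjusted p under 0.05 the count was 1 of 10, Hdac8, against 2796 genes (18.3%) in all, so the members' share was no higher than that of all genes. DESeq2 called 0 of 10 members and 1058 genes in all. The best-bounded member was Hdac11, with inputs at 116 and 170 CPM, 10 saline libraries averaging 132 ± 21.9 CPM and a log2 difference of -0.16 ± 0.21 (95% interval -0.62 to 0.29). Hdac2 was at 115 and 94.1 CPM in the inputs and 72.4 to 175 CPM in purified saline RNA, a log2 difference of 0.19 ± 0.28 (95% interval -0.41 to 0.79). The log2 differences of Hdac4 (0.30 ± 0.36), Hdac6 (-0.13 ± 0.52), Hdac9 (-0.27 ± 0.39), Hdac1 (-0.31 ± 0.90), Hdac3 (-0.50 ± 0.86) and Hdac7 (-0.48 ± 1.09) had adjusted p-values of 0.744 to 0.947. Of the 10, 3 were positive and 7 negative, with a median of -0.215 against -0.014 over all genes tested.

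Several partners and regulators of the class IIa enzymes passed the test in that comparison. Over all 15305 genes tested, 4.65% were called, 282 higher and 430 lower. The calls of listed genes rest on the same 2 inputs and are given from the main fit only. With the replicate number as a block, the count over all genes went from 712 to 156. Of 35 listed class IIa partners and regulators, 34 were tested, 6 were higher in purified RNA and 0 lower, and the list's median log2 fold change was 0.468. Camk2a and Camk2b, calcium/calmodulin-dependent kinases that phosphorylate class IIa enzymes, rose from 1242 ± 29.6 and 828.8 ± 55.7 CPM in input to 2827 ± 558 and 1740 ± 205 CPM in purified RNA. Their log2 fold changes were 1.12 ± 0.15 (edgeR adjusted p = 0.000838) and 1.02 ± 0.17 (edgeR adjusted p = 0.00481). Mef2d, one of the transcription factors that class IIa enzymes bind and silence, rose from 240 ± 42.6 to 688 ± 232 CPM (log2 fold change 1.45 ± 0.29, adjusted p = 0.0129). Ywhah and Ywhae, which encode 14-3-3 proteins, rose by 0.90 ± 0.16 and 0.95 ± 0.19 on the log2 scale (adjusted p = 0.00703 and 0.0133). Sik3, a salt-inducible kinase that phosphorylates class IIa enzymes, rose by 0.97 ± 0.26 (adjusted p = 0.0456).

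Fewer genes passed in each of the other lists, most of which are shorter. Over all genes tested, 4.65% were called, with 282 higher and 430 lower of 15305. Of 40 class I corepressor subunits, 39 were tested, and 1, Arid4a, a subunit of the Sin3 complex, was called higher, at 0.77 ± 0.21 on the log2 scale (adjusted p = 0.0478), with 0 lower and a list median of 0.183. Among 15 acetyltransferases tested, which add the mark that the deacetylases remove, 1 was higher and 0 lower: Kat2a rose by 1.09 ± 0.25 (adjusted p = 0.024). Of 22 acetyl-lysine readers, 2 were higher and 0 lower, among them Mllt1, a YEATS-domain protein (1.43 ± 0.37, adjusted p = 0.0395). Of 10 genes tied to Hdac6's cytosolic work, 1 was higher and 0 lower, the chaperone gene Hsp90ab1 (0.92 ± 0.23, adjusted p = 0.0336). None of the 7 sirtuins, the NAD-dependent deacetylases, was called, and 6 of the 7 were negative with a median of -0.528. Among 10 genes described as deacetylase targets in reward circuits, Egr1, an activity-dependent transcription factor, rose by 1.41 ± 0.33 (adjusted p = 0.0268). Tacr1, the substance P receptor, was lower, at 5.98 ± 3.60 CPM in purified RNA against 37.4 ± 2.70 CPM in input (log2 fold change -2.69 ± 0.53, adjusted p = 0.0119). Tacr1 is known from striatal interneurons, and 2 of 7 interneuron markers were also called lower in purified RNA, with summed levels of 17.8 to 163 CPM in saline libraries at 24 h, 22.6 to 46.2 CPM at 1 month and 181 to 212 CPM in the inputs. Their part in the Tacr1 difference was not tested. These adjusted p-values are from edgeR over all genes tested in the main fit, and they rest on the same 2 inputs.

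The comparisons at 24 h ask whether the family differed a day after cocaine intake. No member was called between all cocaine and saline libraries, against 0.0447% of all genes (6 of 13437), and 0 of 10 had an unadjusted p under 0.05, against 1842 genes (13.7%) in all. DESeq2 also called 0 of the 10, and 256 genes in all. The lowest adjusted p of a member was 0.508, for Hdac2. Of the 10 log2 fold changes, 5 were positive and 5 negative, and their median was -0.0617 against -0.0182 over all genes.

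Hdac2, a catalytic subunit of the NuRD, Sin3 and CoREST complexes, is at chr10:36974544-37001889 on the plus strand. Its saline libraries at 24 h were at 175, 138, 84.9, 72.4 and 99.6 CPM, and the escalating libraries at 191, 157, 144, 173 and 135 CPM. The nonescalating libraries ran from 87.3 to 179 CPM with a median of 117. The escalating group was highest on average, at 160 ± 22.6 CPM against 114 ± 42.1 in saline and 124 ± 29.3 in nonescalating libraries, but 2 of 5 saline libraries, at 175 and 138 CPM, lay within its range. The escalating to saline log2 fold change was 0.49 ± 0.22 (95% interval 0.03 to 0.95, fold 1.41), with an unadjusted p of 0.0382 and an adjusted p of 0.443 by edgeR. Without Saline 24 h replicate 5, the lowest saline library, it was 0.38 ± 0.22 with an unadjusted p of 0.0926 in edgeR. Over 18 alternative fits, in edgeR or DESeq2, it ran from 0.38 to 0.70 with unadjusted p-values of 0.0038 to 0.104. Their adjusted p-values ran from 0.183 to 0.627, so it passed in none. The escalating to nonescalating difference was 0.38 ± 0.19 on the log2 scale (edgeR adjusted p = 0.999). That difference was 0.27 ± 0.21 against the first nonescalating run alone and 0.65 ± 0.27 against the second. The nonescalating to saline difference was 0.11 ± 0.20.

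Hdac5 was less regular among the cocaine libraries at 24 h. The escalating libraries were at 43.8, 94.7, 159, 75.4 and 153 CPM and the nonescalating libraries ran from 84.0 to 235 CPM with a median of 145. Both ranges lay inside that of the saline libraries, 43.5 to 290 CPM. The escalating group's mean of 105 ± 49.7 CPM was below the saline mean of 138 ± 94.8 and the nonescalating mean of 144 ± 43.5, and the log2 difference from saline was -0.39 ± 0.38 (edgeR adjusted p = 0.763). Without Saline 24 h replicate 5 it was -0.61 ± 0.34 (edgeR adjusted p = 0.595). The 95% interval with all libraries was wide, from -1.17 to 0.40 on the log2 scale.

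Hdac11, which is abundant in brain and has strong defatty-acylase activity, gave the narrowest interval. It is at chr6:91156665-91174692 on the plus strand. Saline libraries at 24 h were at 124, 131, 103, 141 and 99.9 CPM, escalating libraries at 115, 137, 107, 111 and 134 CPM, and nonescalating libraries from 106 to 172 CPM with a median of 135. The ranges of the groups overlapped. The log2 difference of all cocaine from saline was 0.09 ± 0.14 (edgeR adjusted p = 0.821), with a 95% interval of 0.877-fold to 1.30-fold.

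Hdac3, the catalytic subunit of the NCoR and SMRT corepressors, was among the members most affected by the library that stood apart. Its saline libraries at 24 h were at 23.9, 8.23, 7.23, 0 and 27.3 CPM, with Saline 24 h replicate 5 at 0. The escalating libraries were at 13.98, 23.4, 44.3, 20.9 and 18.2 CPM and the nonescalating ones from 14.5 to 32.9 CPM with a median of 22.2. The log2 difference of all cocaine from saline was 0.83 ± 0.53 with that library and 0.52 ± 0.35 without it (edgeR adjusted p = 0.511 with it). Hdac4 turned direction on the same library, from -0.25 ± 0.23 with it to 0.06 ± 0.20 without it, and Saline 24 h replicate 5 held the highest Hdac4 level of all, 84.1 CPM. Hdac6, which deacetylates tubulin and HSP90, was at 0.44 ± 0.31 with it and 0.24 ± 0.27 without it. Hdac1, also at 0 in that library, went from 0.01 ± 0.53 with it to -0.30 ± 0.35 without it. The remaining members were at -0.13 ± 0.24 (Hdac9), -0.33 ± 0.81 (Hdac8) and -0.69 ± 0.73 (Hdac7).

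The separate contrasts at 24 h gave the same count. Of 10 members, 0 were called between escalating and saline (0% of all genes called), 0 between nonescalating and saline (0%) and 0 between escalating and nonescalating (0%), with 1, 0 and 0 members at an unadjusted p under 0.05 in edgeR and 0 of 10 called by DESeq2 in each. Over all genes, edgeR had 1433, 1601 and 537 at an unadjusted p under 0.05, and DESeq2 called 52, 164 and 0. The lowest member adjusted p between nonescalating and saline was 0.476, for Hdac6, at 0.60 ± 0.33 on the log2 scale. These contrasts share libraries, so their values are not independent.

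**Figure D2:**
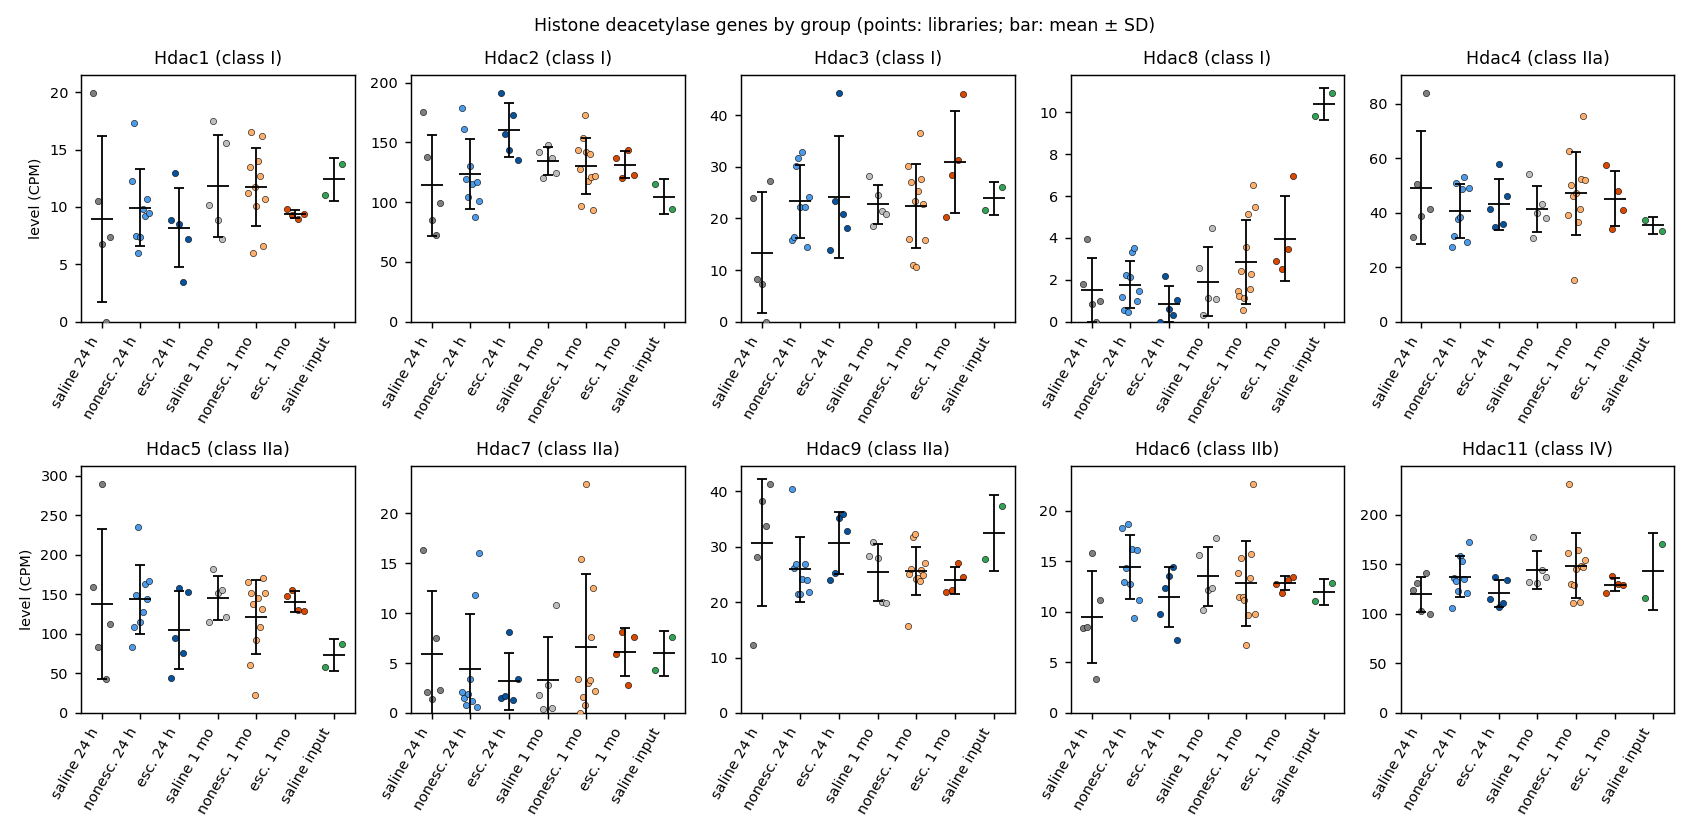
Level of each gene (CPM) in the 6 purified groups and the saline input, 1 point per library, with the group mean and SD as bars that are cut at 0 where they would go below it. The Hdac2 escalating libraries at 24 h (135 to 191 CPM) overlap saline, and the Hdac8 input points (9.84 and 10.9 CPM) lie above all purified points.

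The comparisons at 1 month ask whether the family differed after withdrawal. No member was called between all cocaine and saline (0% of all genes called), nor for escalating against saline (0%), nonescalating against saline (0%) or escalating against nonescalating (0%). In each of these 4 comparisons 0 of 10 members had an unadjusted p under 0.05 in edgeR and DESeq2 called 0 of 10. Over all 14488 genes tested, edgeR had 317, 187, 522 and 177 at an unadjusted p under 0.05, and DESeq2 called 0 in each. Hdac2 and Hdac11 had the smallest standard errors of the 10 for all cocaine against saline. Hdac2 was at 142, 120, 148, 137 and 124 CPM in saline libraries, at 137, 121, 144 and 123 CPM in escalating libraries, and between 93.3 and 173 CPM with a median of 128 in nonescalating libraries.

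The Hdac2 log2 difference between all cocaine and saline at 1 month was -0.05 ± 0.13, with a 95% interval of 0.809-fold to 1.16-fold. Hdac11 was at 132, 178, 131, 144 and 137 CPM in saline and at 121, 138, 130 and 129 CPM in escalating libraries, and ran from 111 to 231 CPM with a median of 147 in nonescalating ones. Its log2 difference was -0.07 ± 0.13 (95% interval 0.792-fold to 1.15-fold). Hdac5 was at 115, 183, 152, 155 and 122 CPM in saline, 148, 156, 130 and 129 CPM in escalating and 22.7 to 170 CPM (median 138) in nonescalating libraries, with a log2 difference of -0.16 ± 0.26. The escalating libraries of both Hdac11 and Hdac5 lay close together, inside the span of the nonescalating group.

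Among the rest at 1 month, the log2 differences of all cocaine from saline were -0.18 ± 0.25 for Hdac1, 0.21 ± 0.25 for Hdac3, 0.15 ± 0.22 for Hdac4, -0.08 ± 0.22 for Hdac6 and -0.04 ± 0.16 for Hdac9. The low-count genes were bounded poorly. Hdac7 was at 0.95 ± 0.82, with an interval of 0.602-fold to 6.16-fold, and Hdac8 at 0.80 ± 0.58. The nonescalating runs differed for Hdac8: its mean was 1.74 ± 1.09 CPM in the first run (SD, n = 6) and 4.19 ± 2.15 CPM in the second (SD, n = 5), and the log2 difference from saline was -0.13 ± 0.65 with the first run alone and 1.13 ± 0.58 with the second alone. Hdac3 was highest on average in the escalating group, at 20.2, 28.4, 31.3 and 44.1 CPM, against 10.6 to 36.5 CPM (median 23.4) in nonescalating libraries, a log2 difference of 0.47 ± 0.26 (unadjusted p = 0.0819 in edgeR). Hdac3 lies at chr18:37935844-37955016 on the minus strand.

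**Figure D3:**
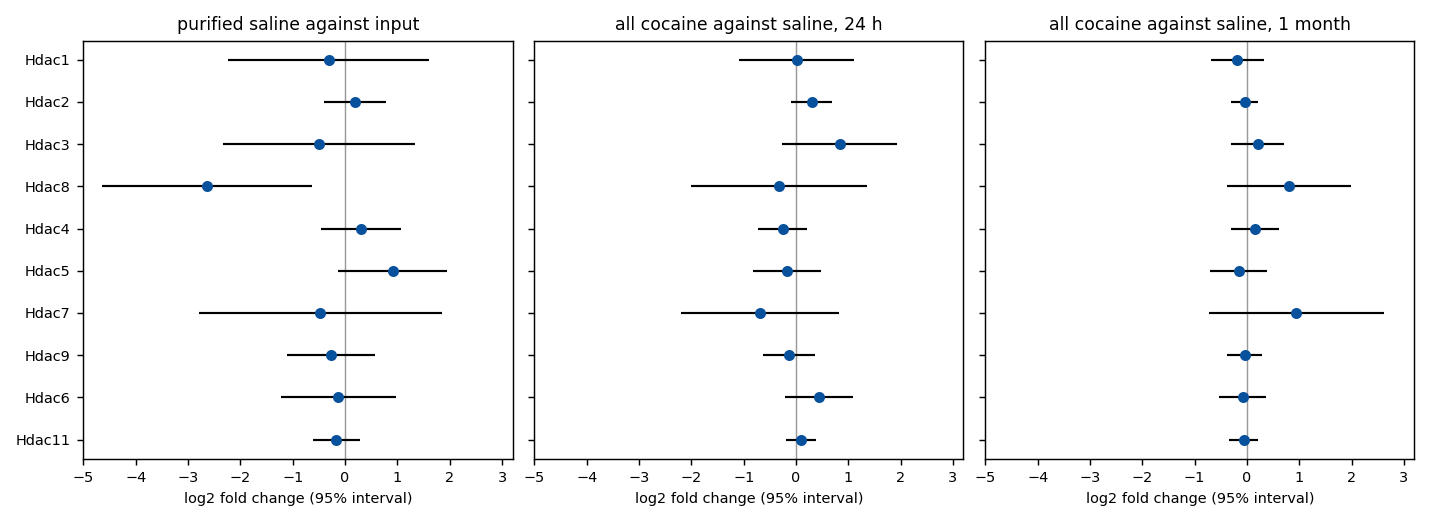
Log2 fold change with 95% interval of each gene from edgeR for purified saline against input, all cocaine against saline at 24 h, and all cocaine against saline at 1 month. The only interval of the 30 that leaves out 0 is that of Hdac8 against input, -4.65 to -0.64, and the intervals of Hdac2 and Hdac11 are the narrowest at 1 month.

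Differences with time were asked in each treatment and in the change of the cocaine effect. Between 1 month and 24 h, 0 of 10 members were called in saline (0.843% of all genes called, 128 of 15190), 0 in nonescalating (0%), 0 in escalating (0%) and 0 in the cocaine effect at 1 month minus that at 24 h (0.0132%). The members with an unadjusted p under 0.05 numbered 0, 0, 1 and 0 in edgeR, and DESeq2 called 0 of 10 in each. Over all genes, edgeR had 2486, 419, 835 and 1646 at an unadjusted p under 0.05, and DESeq2 called 673, 0, 0 and 83.

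The 1 member was Hdac8 in the escalating animals. It was at 0, 2.18, 0.615, 0.315 and 1.05 CPM at 24 h, from 0, 25, 7, 3 and 12 counts, and at 2.91, 2.53, 3.50 and 6.94 CPM at 1 month, from 31, 30, 51 and 86 counts. The ranges did not overlap, which was so for 4.77% of all genes. The log2 fold change was 2.23 ± 0.88 (fold 4.69, 95% interval 1.37 to 16.1), with an unadjusted p of 0.0153 and an adjusted p of 0.899 by edgeR, so it did not pass the correction. Over the alternative fits the adjusted p lay between 0.511 and 1.00. In nonescalating animals the same difference was 0.70 ± 0.59 and in saline animals 0.32 ± 0.82, and the 95% interval of each held 0. Over the alternative fits the nonescalating difference ran from 0.084 to 1.10. At 1 month the first nonescalating run averaged 1.74 ± 1.09 CPM (SD, n = 6) and the second 4.19 ± 2.15 CPM (SD, n = 5). The escalating libraries averaged 3.97 ± 2.02 CPM (SD, n = 4). The change of the cocaine effect between times was 1.15 ± 0.97 for Hdac8, 1.64 ± 1.14 for Hdac7 and -0.34 ± 0.23 for Hdac2, with adjusted p-values of 0.717, 0.640 and 0.614 in edgeR.

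In saline animals the members with the lowest p between 1 month and 24 h were Hdac11 (0.26 ± 0.16, adjusted p = 0.411), Hdac6 (0.50 ± 0.31, adjusted p = 0.431) and Hdac3 (0.75 ± 0.48, adjusted p = 0.449), all in edgeR and all positive at 1 month. Without Saline 24 h replicate 5 these were 0.33 ± 0.16 (adjusted p = 0.340, unadjusted p = 0.0434), 0.29 ± 0.29 (adjusted p = 0.711) and 0.44 ± 0.36 (adjusted p = 0.648), again in edgeR. Hdac6, at chrX:7930120-7947889 on the minus strand, was at 8.38, 8.51, 15.8, 3.38 and 11.2 CPM at 24 h and at 15.6, 10.1, 12.1, 12.3 and 17.3 CPM at 1 month. The lowest of these is again Saline 24 h replicate 5, and the ranges overlapped. Hdac9, the class IIa gene that also encodes a form lacking the catalytic domain, had the lowest coefficient of variation of the class IIa members. It was at 12.2, 28.1, 38.2, 33.8 and 41.3 CPM at 24 h and at 28.2, 30.9, 28.0, 20.1 and 19.8 CPM at 1 month in saline animals (log2 difference -0.28 ± 0.24, adjusted p = 0.592). Hdac1 ran from 0 to 19.96 CPM over the 39 purified libraries and Hdac4 from 15.2 to 84.1 CPM. The time labels and any difference in when libraries were made cannot be told apart.

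No gene of the 7 related lists was called in any of the 12 cocaine or time comparisons. Between all cocaine and saline at 24 h, 12 of 34 class IIa partners were positive and 22 negative, with a median log2 fold change of -0.166 against -0.0182 over all genes. The list medians ranged from -0.166 to 0.122 at 24 h and from -0.091 to 0.0513 at 1 month. The lowest p of these genes at 24 h were those of Mllt3, a YEATS-domain reader of acetylated histones (-0.56 ± 0.16, adjusted p = 0.136), and Prkaca, a catalytic subunit of protein kinase A (-0.58 ± 0.18, adjusted p = 0.165). Sirt6 was at -1.29 ± 0.42 (adjusted p = 0.178). Rcor2, a CoREST subunit, was at -1.58 ± 0.56 (adjusted p = 0.213). Among the reported target genes, Cdk5, which is also in the class IIa partner list, was at 0.88 ± 0.41 (adjusted p = 0.342) and Nr4a1 at 0.63 ± 0.41 (adjusted p = 0.521). At 1 month the lowest p in the lists belonged to Hat1, a cytosolic acetyltransferase of newly made histones, at -0.55 ± 0.23 (p = 0.0223, adjusted p = 1.00). All these p-values are from edgeR.

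Between libraries of the same group the members did not move as a block. With each group's mean removed, log2(CPM + 1) over the 39 purified libraries gave 45 pairs of members, described here without a test because the values share library and depth. Hdac2 ran opposite to Hdac4 (r = -0.56, and -0.49 without Saline 24 h replicate 5) and to Hdac5 (r = -0.37, and -0.60 without it). Hdac4 and Hdac5 ran together weakly (r = 0.25, and 0.46 without it). Hdac6 and Hdac11 ran opposite (r = -0.42, and -0.37 without it). The closeness of Hdac1 and Hdac3 rested on 1 library: r was 0.62 with Saline 24 h replicate 5, where both were at 0, and 0.11 without it.

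Hdac7, a class IIa enzyme needed for the integrity of blood vessels, moved with the markers of endothelial cells and oligodendrocyte precursors, and opposite to those of D1 neurons. It lies at chr15:97792664-97844502 on the minus strand. The library with the most Hdac7, 22.9 CPM, a nonescalating library at 1 month, had a summed endothelial marker level of 1337 CPM, and the libraries next in order, at 16.4, 16.04, 15.5 and 12.5 CPM, had sums of 428, 727, 419 and 460 CPM. The library at 1678 CPM of endothelial markers, Saline 24 h replicate 5, had 7.55 CPM of Hdac7. Over the 39 purified libraries, with group means removed, Hdac7 had r = 0.71 with the endothelial sum, 0.70 with oligodendrocyte precursor markers, 0.59 with microglial markers and -0.79 with D1 neuron markers, and these were 0.73, 0.70, 0.58 and -0.81 without that library. Each of the 7 endothelial markers had a count in at least 1 library of every group, with sums of 17.4 to 1678 CPM in saline at 24 h, 23.9 to 727 in nonescalating and 17.7 to 303 in escalating libraries, and 39.1 to 760, 24.0 to 1337 and 73.6 to 490 CPM in the same groups at 1 month. Their part in the Hdac7 differences between groups was not tested. Hdac7 in the nonescalating libraries at 24 h was at 1.80 ± 0.90 CPM in the first run (SD, n = 6) and 9.48 ± 8.004 CPM in the second (SD, n = 3).

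**Figure D4:**
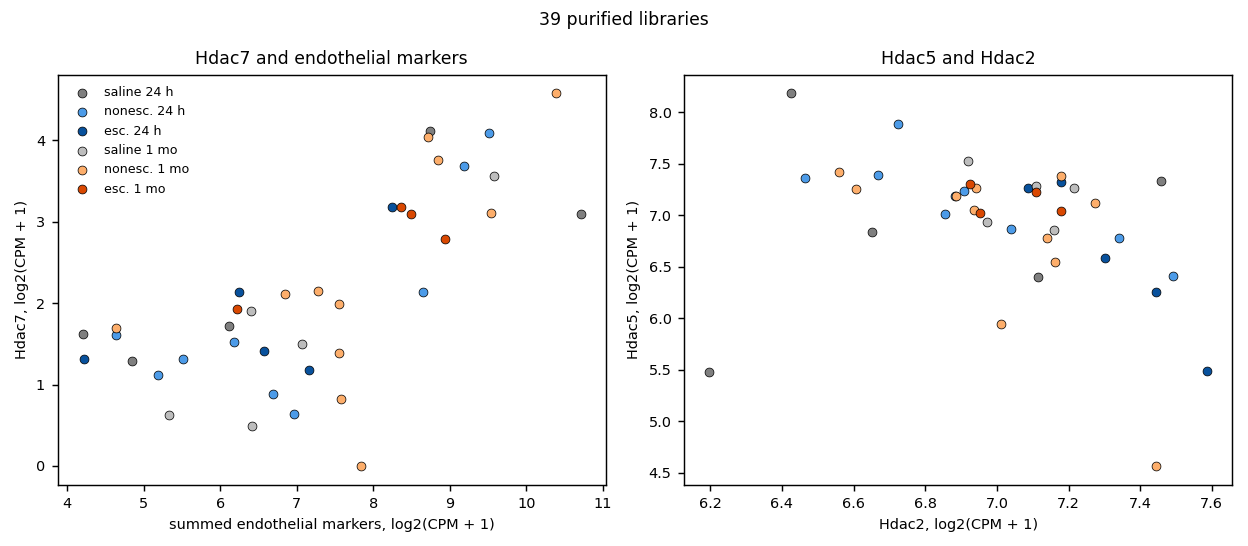
Each point is 1 of the 39 purified libraries, coloured by group, on log2(CPM + 1) scales: Hdac7 against the summed endothelial markers (left) and Hdac5 against Hdac2 (right). Hdac7 tends to be high where the endothelial sum is high (r = 0.71 with group means removed), though the library with the highest sum, 1678 CPM, had 7.55 CPM of Hdac7. Hdac5 tends to be low where Hdac2 is high (r = -0.37 with group means removed).

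The gene most like each member, by the same group-centred r among 9627 genes with a mean of at least 5 CPM, was named for each of the 10 as a description. Hdac2 was closest to Sept7, a septin of the cytoskeleton (r = 0.88, and 0.87 without Saline 24 h replicate 5), and Hdac7 to Slc40a1, the iron exporter ferroportin (r = 0.86 and 0.87). Hdac9 was closest to Enah, an actin regulator (r = 0.79 and 0.79), and Hdac5 to Zfp335, a zinc finger protein (r = 0.79 and 0.75). Hdac4 was closest to Por, cytochrome P450 oxidoreductase (r = 0.75 and 0.70), Hdac8 to Shf (r = 0.67 and 0.63) and Hdac11 to Ip6k2, an inositol hexakisphosphate kinase (r = 0.66 and 0.64). The r of these pairs changed little without that library. Those of Hdac3 to Dync2li1 (r = 0.87 and 0.69), Hdac6 to Mars (r = 0.70 and 0.57) and Hdac1 to Yae1d1 (r = 0.82 and 0.47) were lower without it. Each named gene had the highest r of the 9627, so a high r is built in. Whether it stayed the closest without that library was not tested. The points share library and depth, so no p is given.

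Some members share exon bases with annotated neighbours, and the sources used here do not give the strand setting of the counting. Hdac4, at chr1:91928779-92195699 on the minus strand, shares 3536 of its 15813 exon bases with Gm26720, and Hdac11 shares 690 with Gm14573 and Gm44002. Hdac5 shares 111 bases with Mir8101 and Hdac7 shares 29 with Slc48a1. Reads there could be assigned to either gene or to none, so the levels of Hdac4 and Hdac11 carry that uncertainty. Hdac1, at chr4:129516104-129542713, and Hdac9, at chr12:34047580-34917095, both on the minus strand, share none.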

How the data were processed

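The 41 libraries were deposited as raw read counts per gene, which the authors made with STAR 2.0.0e and HTSeq on mm10, per the submitters' processing notes. Neither the annotation nor the strand setting was given in the sources used here. The 5 summary lines and 1 entry named unknown were left out. Counts were tested with edgeR 4.0.16 (R 4.3.3) by the quasi-likelihood test, with trimmed-mean scaling, edgeR's filter on low counts and Benjamini-Hochberg adjustment over all genes tested at 0.05, in 1 fit per time for treatments, 1 for input and 1 for time. DESeq2 1.42.0 was an alternative. Errors of log2 fold changes are standard errors worked back from the fold change and the F statistic of edgeR's test, so they are approximate. Intervals are 95% and were built from these errors. No pair of libraries in a group agreed within sampling noise. Scripts were tested on simulated counts. All 10 members are described; of each related list, the called genes and otherwise up to 2 with the lowest p could be named. Members, lists and tests were chosen with earlier results of these data known, and the Hdac5, Hdac2 and Hdac11 promoters were picked after their levels were seen. Some genes of the related lists are counted but not reported by name here.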

Additional observations from a re-analysis of the deposited data

Results flagged for a closer look

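Hdac9 in replicate 1 of the first nonescalating run at 24 h stood far from the rest of its group, at 40.48 CPM from 452 counts. The nearest other library of the group was at 27.0 CPM and the lowest at 21.4 CPM. A gap of this relative size is found by chance in about 1 in 20 groups, and 1 was found among the 50 groups examined, where 2.5 would be expected. No explanation was tested.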

How the results depend on the processing

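The count of called members was 0 of 10 in all 13 comparisons and stayed 0 under every alternative run, except for purified saline against input. There it was 1, Hdac8, with all 41 libraries in 1 fit (adjusted p = 0.0262) and ran from 0 to 1 when single libraries were left out, 1 being without Saline 24 h replicate 5. Of 2562 member fold changes under alternatives, 131 were on the other side of 0 and 2 passed. The lowest adjusted p of a member in the cocaine and time comparisons was 0.180, for Hdac2 between all cocaine and saline at 24 h. With the length of the longest coding transcript, an alternative chosen after seeing the data, 6 of the 10 genes kept their place in the order of purified RNA.

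Counts over all genes moved more. Against input, 712 became 457 with a minimum mean of 5 CPM and 1829 with all libraries in 1 fit, and without single libraries it ran from 43 (without an input) to 2302 (without Saline 24 h replicate 5). For all cocaine against saline at 24 h, 6 became 26 with median ratio size factors, 71 without a filter, 30 with the CPM minimum, 256 in DESeq2, 508 in 1 fit of all 39 purified libraries and 0 with either nonescalating run alone, and 0 to 89 without single libraries. In the fit of all 39, escalating and nonescalating against saline at 24 h went from 0 to 43 and 276, and escalating against nonescalating from 0 to 2. For saline with time, 128 became 222 with median ratio size factors, 55 without a filter, 215 with the CPM minimum and 673 in DESeq2, and 7 to 379 without single libraries. The change in the cocaine effect, 2, became 83 in DESeq2, 0 without a filter and 0 or 1 with either nonescalating run alone, and 0 to 12 without single libraries. The causes were not tested.

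With the replicate number as a block, 0 of 10 members were called in every comparison that could be blocked, and all-gene counts went from 712 to 156, from 6 to 0, from 128 to 53 and from 2 to 3. On average, libraries with the same number were no more alike: 109 such pairs had a mean correlation of deviations of -0.0128, against 0.00396 for 505 pairs with different numbers. Single correlations ran from -0.582 to 0.423 and from -0.558 to 0.570, so the means cannot decide whether some libraries were paired. Depth limits Hdac7 and Hdac8 most, with medians of 35 and 18 counts per purified library.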
